A study of Selaginella nipponica with 6 samples.

Results

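Expression of the unigenes close to *AGL67*, *CUC2* and *ARF2* was examined in the erect and the prostrate shoots of *Selaginella nipponica*, a lycophyte with creeping early shoots and upright later shoots that carry sporangia. The members are the developmental regulators that the study names by these homologs and also measured by RT-qPCR, namely TRINITY_DN97881_c0_g2 (close to *AGL67*), TRINITY_DN100108_c0_g1 (close to *CUC2*) and TRINITY_DN101483_c0_g1 (close to *ARF2*), together with TRINITY_DN97881_c0_g1, the other unigene in the Trinity component of the first. These are 4 of 206768 unigenes, and the prefix is left out from here on. The homologs are those the study gives. No sequence was used here, so the names could not be checked and no sequence is shown.

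The reproductive samples were 3 libraries of erect shoots with their sporangia, and the vegetative samples were 3 libraries of prostrate shoots with emerging roots. The plants were untreated, grew wild in 1 population, and were harvested at the same time, and the replicates were subsamples of each harvest. The p-values therefore measure only the spread between such subsamples, which may be technical. Type of shoot and tissue content, sporangia in one and emerging roots in the other, cannot be told apart. The identifiers carry no annotation, so markers of either tissue were not examined. Total counts ranged from 18001174 to 20244006 in the erect libraries and from 15679196 to 17584167 in the prostrate libraries.

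*AGL67* encodes a MADS-domain transcription factor, a family of DNA-binding proteins that act as dimers or larger complexes, and in *Arabidopsis thaliana* it takes part in the desiccation tolerance of seeds. *CUC2* encodes a NAC-domain transcription factor that in *A. thaliana* marks the boundaries between organs and the shoot meristem and takes part in the formation of axillary branches. *ARF2* encodes an auxin response factor, one of the proteins that bind auxin-responsive promoters, and in *A. thaliana* it acts mostly as a repressor with roles in organ growth and ageing. These roles are known from flowering plants and were not tested in *Selaginella*.

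All 4 unigenes were higher in the erect shoots. They passed both thresholds used by the study for differential expression (adjusted p below 0.05, log2 fold change beyond 1 in size) with edgeR's quasi-likelihood test and Benjamini-Hochberg adjustment over 23275 tested unigenes. The same thresholds called 7.94% of the tested unigenes higher in the erect shoots. In each of the 4 the lowest erect library lay above the highest prostrate library, a pattern found in 19.4% of the tested unigenes. The members were chosen with earlier results of these data known, and the DN97881_c0 unigenes share a component. Both shares are therefore background and no test of the 4 calls. All 4 passed the filter on low counts, which the DN97881_c0 unigenes did through the erect libraries alone. For each, an exact permutation test on log2(CPM + 1) gave a two-sided p of 0.1, the smallest that 3 libraries against 3 allow. CPM are counts relative to the scaled total of a library, not to transcript length, so they compare libraries and not unigenes. In whole shoots, fewer cells of a type and less RNA per cell cannot be told apart.

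**Figure D1:**
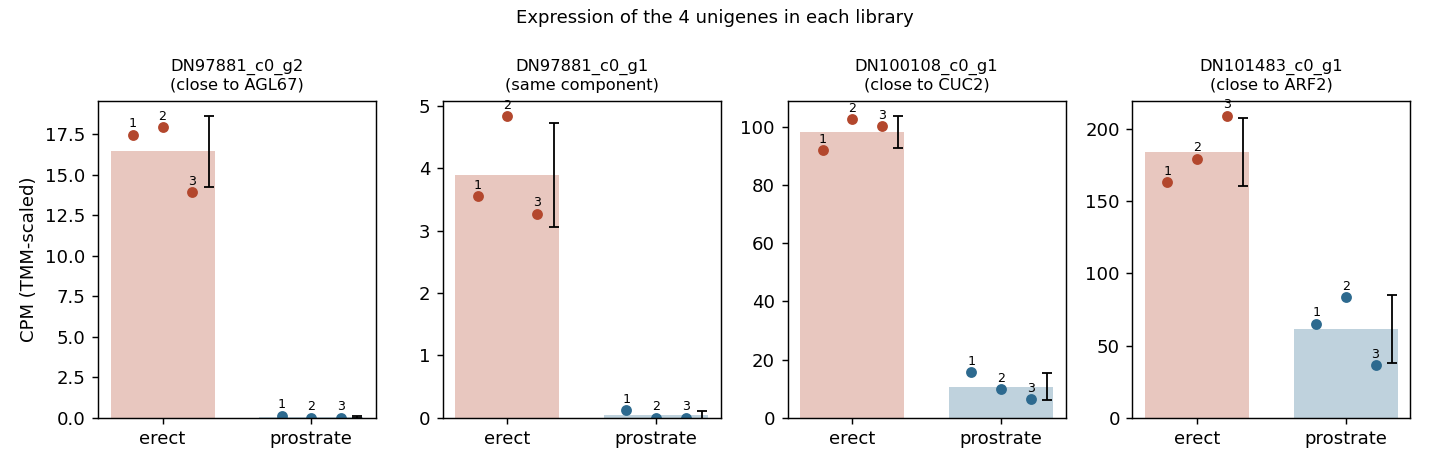
CPM of each of the 4 unigenes in the erect (red) and prostrate (blue) libraries; points are libraries with their replicate numbers, bars are means and error bars are SDs (n = 3), and each panel has its own linear axis from 0. The erect and prostrate points do not overlap in any panel, and both DN97881_c0 unigenes lie at or near 0 in the prostrate shoots.

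DN97881_c0_g2, the unigene close to *AGL67*, had almost no counts in the prostrate libraries. The RT-qPCR measurements of the study were not analysed here, so this rests on the sequencing counts alone. It had 363, 333 and 259 counts in erect replicates 1, 2 and 3, against 2, 0 and 0 counts in prostrate replicates 1, 2 and 3. On the CPM scale these were 17.5, 17.9 and 13.9 in the erect libraries and 0.126, 0 and 0 in the prostrate libraries. The erect libraries lay close together, with replicate 3 lowest, and all prostrate signal came from replicate 1. A count of 0 allows up to 0.207 CPM in prostrate replicate 2 and 0.177 CPM in prostrate replicate 3, taking 3 counts as the limit. Averages were 16.4 ± 2.20 CPM in the erect and 0.0420 ± 0.0728 CPM in the prostrate shoots (SD, n = 3 each). Over all libraries, counts per scaled total were 389 times as high in the erect shoots, with an exact 95% interval from 107 to 3218 (edgeR adjusted p = 0.000312). This interval, like all intervals on counts given here, is a Clopper-Pearson interval that covers counting error only.

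The size of this ratio rested on 2 prostrate counts. Without prostrate replicate 3 it was 249.8 (interval from 69.0 to 2066). Without prostrate replicate 1, which held both counts, the erect level was at least 172-fold higher, taking 3 counts over the remaining prostrate libraries as the limit. The exact interval began lower, at 139.9. Leaving out any single library kept the call, with an edgeR adjusted p from 0.00141 to 0.00251. With only 2 prostrate counts and a filter passed through the erect libraries alone, these refits add little to the counts themselves. Such low prostrate counts were not particular to this unigene. Of the 1847 unigenes called higher in the erect shoots, 359 had at most 3 counts over the prostrate libraries and 146 had none.

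DN97881_c0_g1 had the same form at a lower count. Erect replicates 1, 2 and 3 held 74, 90 and 61 counts, against 2, 0 and 0 counts in prostrate replicates 1, 2 and 3. Erect replicate 3 was the lowest of the erect libraries in both unigenes, in counts and in CPM. It averaged 3.89 ± 0.836 CPM in the erect and 0.0420 ± 0.0728 CPM in the prostrate shoots (SD, n = 3 each). Counts per scaled total gave a ratio of 91.7 (exact interval from 25.1 to 762, edgeR adjusted p = 0.00263). It was 58.9 without prostrate replicate 3. Without prostrate replicate 1, the erect level was at least 40.6-fold higher, taking 3 counts over the remaining prostrate libraries as the limit. The exact interval began lower, at 32.8.

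Trinity places unigenes that share sequence in 1 component, so reads could have been divided between DN97881_c0_g2 and DN97881_c0_g1. DN97881_c0_g2 held 83.1% of their joint counts in erect replicate 1 (interval from 79.2 to 86.5%), 78.7% in replicate 2 (74.5 to 82.5%) and 80.9% in replicate 3 (76.2 to 85.1%). The 3 intervals overlap, and a difference in this division between the erect libraries was not tested. In the prostrate shoots, 2 of 4 joint counts fell on it, too few for a comparison. Summed over the component, there were 1180 counts in the erect and 4 counts in the prostrate libraries, or 20.3 ± 2.86 CPM against 0.0841 ± 0.146 CPM. The ratio of the summed counts was 240.4 (interval from 93.6 to 884). The sum was called higher in the erect shoots (edgeR adjusted p = 0.00111 over 16188 components, of which 7.7% were called in this direction).

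DN100108_c0_g1, the unigene close to *CUC2*, was expressed in every library. It had 92.2, 103 and 100.4 CPM in erect replicates 1, 2 and 3, from 1916, 1908 and 1871 counts, against 15.6, 9.94 and 6.44 CPM in prostrate replicates 1, 2 and 3, from 247, 144 and 109 counts. The erect libraries were nearly level, whereas the highest prostrate library was 2.42 times the lowest. Averages were 98.4 ± 5.53 CPM in the erect and 10.7 ± 4.61 CPM in the prostrate shoots (SD, n = 3 each). The log2 fold change of the erect over the prostrate shoots was 3.21 (standard error 0.326, edgeR adjusted p = 0.000943), a 9.24-fold higher level with a 95% interval from 5.47 to 15.6. With each library left out in turn, it ranged from 2.92 to 3.56, and the unigene was called each time. Among the 1847 unigenes called higher in the erect shoots, 809 had a larger log2 fold change, and the median of the 1847 was 2.88.

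DN100108_c0_g1 is the only unigene of its component. Its read cluster, the group of reads from which Trinity builds components and which the first number of the identifier names, holds 3 more unigenes in the component DN100108_c1. The study does not name them, and they are given here for the sharing of reads, not as homologs of *CUC2*. DN100108_c1_g1 had 134, 179 and 55.1 CPM in erect replicates 1, 2 and 3, against 0.631, 1.52 and 1.18 CPM in prostrate replicates 1, 2 and 3. DN100108_c1_g2 had 1352, 2194 and 749 CPM in the erect and 7.31, 18.6 and 6.32 CPM in the prostrate libraries in the same order. In both, replicate 2 was the highest and replicate 3 the lowest of the erect libraries, but the shoot types did not overlap.

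The change of both lay outside the interval of the member, whose log2 fold change had a 95% interval from 2.45 to 3.96. DN100108_c1_g1 had a log2 fold change of 6.78 (interval from 5.46 to 8.11, edgeR adjusted p = 0.000412) and DN100108_c1_g2 one of 7.06 (interval from 5.54 to 8.57, edgeR adjusted p = 0.000613). For DN100108_c1_g2 it was 7.70 without prostrate replicate 2, its highest prostrate library. The erect libraries differed by up to 3.24-fold for DN100108_c1_g1 and 2.93-fold for DN100108_c1_g2, against 1.11-fold for DN100108_c0_g1. DN100108_c1_g3 was rare, with 0, 33 and 18 counts in the erect and 1, 0 and 2 counts in the prostrate libraries. It was removed by the filter on low counts, and the shoot types overlapped.

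The part of the read cluster counted on DN100108_c0_g1 differed between the shoots. It was 5.84, 4.15 and 11.1% in erect replicates 1, 2 and 3, against 66.0, 33.0 and 45.8% in prostrate replicates 1, 2 and 3. No erect value reached the lowest prostrate value. Summed over the 4 unigenes, the read cluster had 1653.5 ± 788 CPM in the erect and 22.6 ± 8.06 CPM in the prostrate shoots. DN100108_c1_g2, which the study does not name, held 82809 of the 95687 erect counts and 493 of the 1048 prostrate counts in this sum. The log2 fold change of the sum was 6.21, against 3.21 for the member alone (edgeR adjusted p = 0.000511 over 13507 read clusters, of which 7.61% were called higher in the erect shoots). Fractions in estimated counts can arise where a read is divided between unigenes. The 20 values above 0 of the 4 members all lay within 0.0046 of a whole number. Of the 16 such values of the 3 unigenes of DN100108_c1, 81.25% lay within 0.01 of one and the farthest was 0.0594 away. Over all tested unigenes, 81.5% of 137578 such values lay within 0.01.

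**Figure D2:**
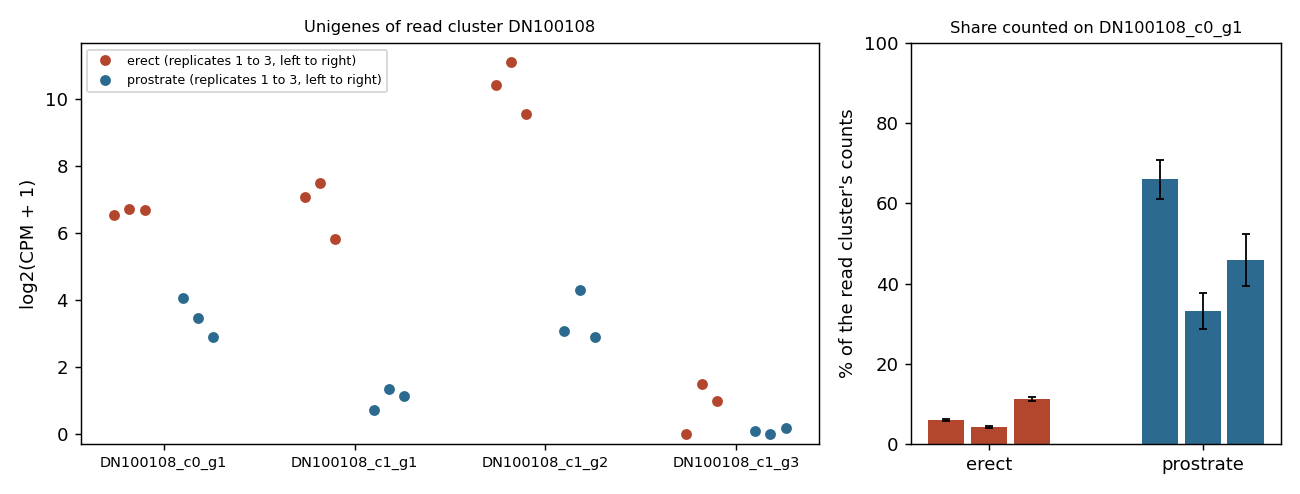
Left, log2(CPM + 1) of the 4 unigenes of read cluster DN100108 in each erect (red) and prostrate (blue) library. Right, percent of the counts of the read cluster that fell on DN100108_c0_g1 in replicates 1 to 3 of each type of shoot, with exact 95% intervals for counting error. The share lies between 4.15 and 11.1% in the erect and between 33.0 and 66.0% in the prostrate libraries.

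DN101483_c0_g1, the unigene close to *ARF2*, was also expressed in every library and had the smallest ratio between the shoots among the 4. It had 163, 179.6 and 209 CPM in erect replicates 1, 2 and 3, from 3396, 3337 and 3902 counts, against 65.3, 83.4 and 36.4 CPM in prostrate replicates 1, 2 and 3, from 1035, 1208 and 616 counts. The lowest erect library lay well above the highest prostrate library, and prostrate replicate 3 was the lowest of all. Averages were 184 ± 23.4 CPM in the erect and 61.7 ± 23.7 CPM in the prostrate shoots (SD, n = 3 each). The log2 fold change was 1.58 (standard error 0.304, edgeR adjusted p = 0.0131), a 2.99-fold higher level with a 95% interval from 1.83 to 4.87. Of the 1847 unigenes called higher in the erect shoots, 1537 had a larger log2 fold change. The unigene is alone in its component and in its read cluster.

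This call was lost with 1 library left out. Without prostrate replicate 1, the log2 fold change was 1.59 but the adjusted p was 0.0557. With each of the other libraries left out, the adjusted p lay between 0.0112 and 0.0465, and the log2 fold change between 1.28, without prostrate replicate 3, and 1.84, without prostrate replicate 2.

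**Figure D3:**
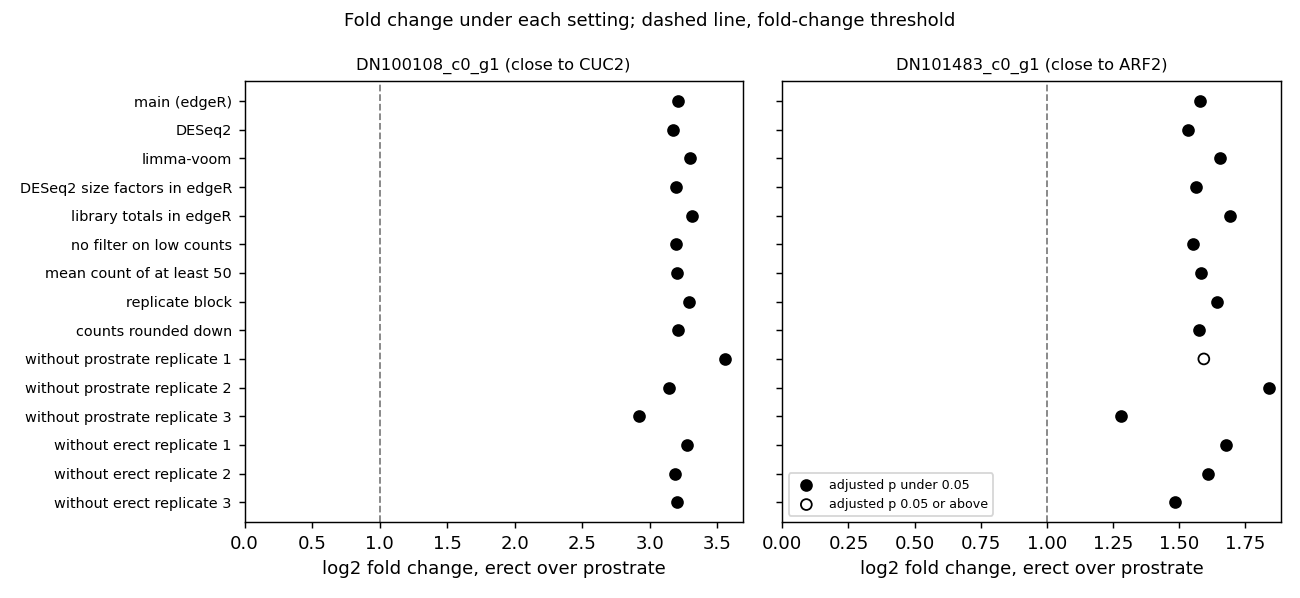
Log2 fold change of DN100108_c0_g1 (left) and DN101483_c0_g1 (right), erect over prostrate shoots, as reported (top) and under each alternative; filled points have an adjusted p under 0.05, the open point does not, and the dashed line is the threshold of 1. All values lie above 1, and only DN101483_c0_g1 without prostrate replicate 1 has an adjusted p above 0.05.

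Within each library the counts of the unigenes close to *CUC2* and *ARF2* can be set against each other without any scaling, a comparison chosen after the values were seen. DN100108_c0_g1 had 56.4, 57.2 and 47.9 counts for every 100 counts of DN101483_c0_g1 in erect replicates 1, 2 and 3, against 23.9, 11.9 and 17.7 in prostrate replicates 1, 2 and 3. The ratio itself also reflects transcript lengths, but its change does not. It was 3.13 times as high in the erect shoots, without overlap (exact permutation test on the log2 ratio, two-sided p = 0.1, the smallest possible), and lay between 2.61 and 3.70 times with each library left out in turn.

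**Figure D4:**
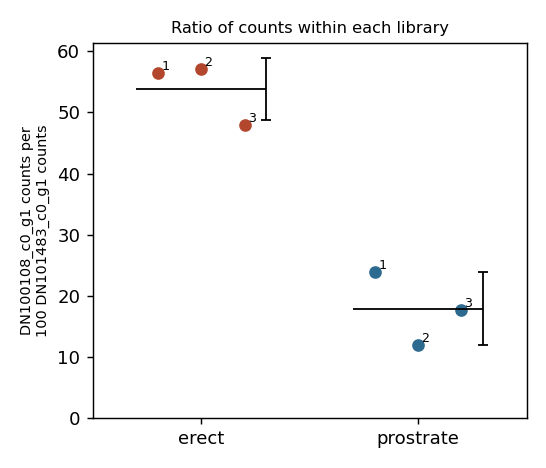
Counts of DN100108_c0_g1 per 100 counts of DN101483_c0_g1 in each erect and prostrate library, with replicate numbers; horizontal lines are means and error bars SDs (n = 3). The erect libraries lie between 47.9 and 57.2 and the prostrate libraries between 11.9 and 23.9.

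The spread between replicates is given as a description, beside the spread that counting alone would give. The coefficient of variation of DN100108_c0_g1 was 5.62% in the erect and 43.2% in the prostrate shoots, against 2.30% and 7.75% from counting. Among tested unigenes of any level, 10.3% had a lower value in the erect and 66.2% in the prostrate shoots. Unigenes of like counts were not compared. For DN101483_c0_g1 it was 12.7% in the erect and 38.4% in the prostrate shoots, against 1.68% and 3.24% from counting. The medians over all tested unigenes were 18.7% in the erect and 32.0% in the prostrate shoots. DN97881_c0_g2 had 13.4% in the erect shoots, against 5.60% from counting, and DN97881_c0_g1 had 21.5%, against 11.5%. Their prostrate counts were too few for a value. The order of the prostrate libraries was not shared. DN100108_c0_g1 was highest in replicate 1 and DN101483_c0_g1 in replicate 2, though both were lowest in replicate 3.

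For each member, the tested unigene with the closest profile outside the read clusters of the members was sought, by Euclidean distance on log2(CPM + 1) over the 6 libraries. For DN97881_c0_g2 this was DN103958_c1_g2, with 16.7 ± 3.16 CPM in the erect shoots and no count in the prostrate shoots (distance 0.221). For DN97881_c0_g1 it was DN98610_c0_g1, with 3.73 ± 0.845 CPM in the erect shoots and 1 prostrate count (distance 0.151). DN100108_c0_g1 was closest to DN101007_c2_g1, with 121 ± 13.8 CPM in the erect and 8.15 ± 2.61 CPM in the prostrate shoots (distance 0.858). DN101483_c0_g1 was closest to DN100824_c1_g2, with 201 ± 52.8 CPM in the erect and 64.0 ± 10.6 CPM in the prostrate shoots (distance 0.680). The files do not pair these identifiers with gene names. By Pearson's r the closest unigene was another one for each member. This measure, taken over 6 libraries that fall into 2 groups, exceeded 0.95 with 1346 of 23269 unigenes for DN97881_c0_g2, 1286 for DN97881_c0_g1, 1028 for DN100108_c0_g1 and 406 for DN101483_c0_g1.

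Beside the members, a list of 20 other transcription factor unigenes was examined, with 12 *SPL* and 8 *AP2*-like unigenes. Among the *SPL*s, DN105179_c0_g2 overlaps DN103335_c1_g1 in sequence. Transcription factor homologs that the study names without an identifier are not in this list. *SPL* genes encode regulators of growth phase and *AP2*-like genes include repressors of flowering in *A. thaliana*. The study divides the *AP2*-like genes into a euAP2 and an ANT clade. The counts here were not split by clade, so they do not stand for repressors of flowering alone. Of the 20, 18 were tested. Of these, 2 were called higher in the erect shoots, where 7.94% of all tested unigenes were called, and 7 higher in the prostrate shoots, where 5.31% were. The remaining 9, of which 8 were *SPL*s, passed in neither direction. Both unigenes called higher in the erect shoots were *SPL*s, and 5 of the 6 tested *AP2*-like unigenes were called higher in the prostrate shoots. The median log2 fold change of the 18 was -0.36, against -0.01 over all tested unigenes, and only 2 had a larger value than DN101483_c0_g1, with 1.90 as the highest. The study collected these families by sequence, and the list was drawn up here with earlier results known, so the counts are descriptions.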

How the data were processed

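RNA was sequenced from 3 libraries of the erect and 3 of the prostrate shoots. The authors assembled the paired reads with Trinity and kept for every gene its longest transcript, the unigene. The submitters' processing notes name Trimmomatic 0.36 and HISAT2 2.1.0, and the counting tool was not given in the sources used here. The deposited values are estimated counts per unigene and library, which the authors did not scale for library size or transcript length. Columns were matched to libraries by the sample descriptions.

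Estimated counts were rounded and tested in R 4.3.3 with edgeR 4.0.16 (glmQLFit and glmQLFTest, TMM scaling, filterByExpr at min.count 10 and min.total.count 15, prior count 0.125), with shoot type as sole term, after tests on simulated data. Intervals of fold changes used the standard error and the degrees of freedom of this fit. For unigenes with 3 or fewer counts in a group, a ratio of counts per scaled total replaced the fitted fold change. CPM used TMM-scaled totals.

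The 4 members, the 3 other unigenes of their read clusters and, for each member, its nearest unigene were named. The members and lists were chosen with earlier results of these data known. Alternatives were DESeq2 1.42.0 (the tool of the study), limma-voom (limma 3.58.1), other scaling, filters, rounding and thresholds, a block, sums over components or read clusters, and each library left out. Figures were drawn with matplotlib 3.10.9. Annotations, sequences and RT-qPCR values were not used here.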

Additional observations from a re-analysis of the deposited data

How the results depend on the processing

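The 4 members were higher in the erect shoots under every tool, scaling, filter and left-out library in which they were tested. For the DN97881_c0 unigenes, with almost no prostrate counts, this adds little to the counts themselves. The number called was 3 of 4 with a mean count of at least 50, which leaves out DN97881_c0_g1 (so 0 other unigenes of the component), and between 3 and 4 with each library left out, the lost call being DN101483_c0_g1 without prostrate replicate 1. With each library left out, the log2 fold change of DN101483_c0_g1 ranged from 1.28 to 1.84, and from 1.26 to 1.79 in the fit on component sums, where its adjusted p was 0.0551 without that library. DESeq2 called all 4, with adjusted p values of 3.98e-13 for DN97881_c0_g2, 1.29e-06 for DN97881_c0_g1, 1.28e-18 for DN100108_c0_g1 and 0.000167 for DN101483_c0_g1. Of the other unigenes of read cluster DN100108, 3 instead of 2 were called without a filter on low counts, and between 2 and 3 with each library left out. For all 4 members the closest unigene was another one by Pearson correlation (r of 0.9998, 0.9994, 0.9993 and 0.9991 in the order given in the text).

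Over all tested unigenes, the number called higher in the erect shoots was 1847. It was 2666 without a filter, 2091 with DESeq2 and 2028 with library totals. It was 1016 with a mean count of at least 50 and between 1264 and 1687 with each library left out. The number called higher in the prostrate shoots was 1236, against 2167 with DESeq2, 3470 without a filter, 703 with a mean count of at least 50, 664 at an absolute log2 fold change above 2, and between 634 and 1360 with each library left out (634 without erect replicate 1 and 698 without erect replicate 2). The causes of these differences were not tested.

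Libraries share replicate numbers in the labels, but same-numbered libraries did not deviate together (correlations of -0.32, 0.05 and -0.14 across unigenes for numbers 1, 2 and 3). Differently numbered libraries had correlations between -0.15 and 0.25. Deviations were taken from the mean of each shoot type, so these values depend on each other, and they were not tested. With the replicate number as a replicate block, 1152 unigenes were called higher in the erect and 701 higher in the prostrate shoots. All 4 members were still called, with DN101483_c0_g1 at an adjusted p of 0.0470. By sequencing counts alone, DN97881_c0_g2 and DN97881_c0_g1 lay at or near 0 in the prostrate libraries at this depth.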
